A study of Drosophila pseudoobscura with 29 samples.

Results

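The 150 genes described here are those of the fruit fly Drosophila pseudoobscura whose transcription was most concentrated between 12 and 16 h after egg laying. They were chosen from the 8466 genes of the expression table. Of these, 5964 genes reached at least 25 RPM (reads per 1000000 reads of a library) in a window, and the members are the 150 with the highest share of their summed RPM in the 4 windows from 12-13 h to 15-16 h. The share therefore comes from the same values that are described below, and the levels, peaks and widths of the courses are a description without a test. A gene that passed the limit of 25 RPM only through the windows in which it was high had to have a course that is not flat.

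The series followed promoter activity through embryogenesis with RAMPAGE, in which cDNAs complete at their 5′ end are sequenced, so that each read marks a transcription start site. Each of 29 windows of 1 h, from 0 to 29 h, was represented by 1 library made from pooled whole embryos of the wild-type reference genome strain, collected in population cages, with no treatment and no genetic manipulation. Start sites that lie close together form a transcription start site cluster (TSC), which stands for a promoter. Because a transcript is counted once, at its 5′ end, RPM can be compared between genes without a correction for length.

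In the fly embryo the middle and later stages cover germ band retraction, dorsal closure, head involution and the differentiation of muscles, nervous system, tracheae and epidermis, before the larval cuticle is laid down. Genes that act in such a transient step are expected to be switched on and off again, while genes for general cell functions are transcribed throughout. Fly promoters range from narrow ones, with start sites confined to a short stretch, to broad ones, and narrow initiation is known as a frequent property of developmentally regulated genes. The tables do not pair the gene identifiers with names, so the members are given by their rank in share and by the position of their main TSC in the r2.9 build, and no function can be attached to them.

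The 28 libraries used held between 511794 and 10115055 reads in genes, and a single read was worth between 0.0833 and 1.37 RPM. The 27-28 h library was left out of the share because it held 795 reads in genes, of which 20 fell on members. Windows are single libraries, so intervals given for a level cover counting error only. The paper does not say whether duplicate reads were collapsed. In whole embryos, fewer cells of a type and less RNA per cell cannot be told apart.

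The share at 12-16 h ranged from 31.23% to 76.8% among the members, with a median of 37.6% and quartiles of 33.4% and 44.7%. A perfectly even course over 28 windows would give 14.3%, and the median over the 5964 genes was 13.7%. The limit did not fall in a gap. The last 3 genes inside had shares of 31.45%, 31.24% and 31.23%, and the first 3 outside had 31.19%, 31.11% and 31.04%. Members at the lower end are therefore hardly different in share from genes that were left out.

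The name of a pulse at 12-16 h described the peak window of most members, but not the breadth of their courses. The highest window lay within 12-16 h for 110 of the 150 members, with 22, 24, 34 and 30 members in the successive windows. It lay later for 35 members, of which 27 peaked at 16-17 h, 7 in the next window and 1 at 19-20 h, and earlier for 5 members. For 42 members the 95% Poisson interval of the peak lay above that of the next highest window, so in the others the peak window was not resolved at this depth. The next highest window was adjacent to the peak in 102 members. The highest levels of most members thus lay in neighboring windows, and further maxima were not counted. Only 19 of the 150 members (12.7%) had both flanks under 50% of their mean at 12-16 h. The flanks are the earlier and later windows that are compared below. Most courses therefore did not fall that far on both sides.

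**Figure D1:**
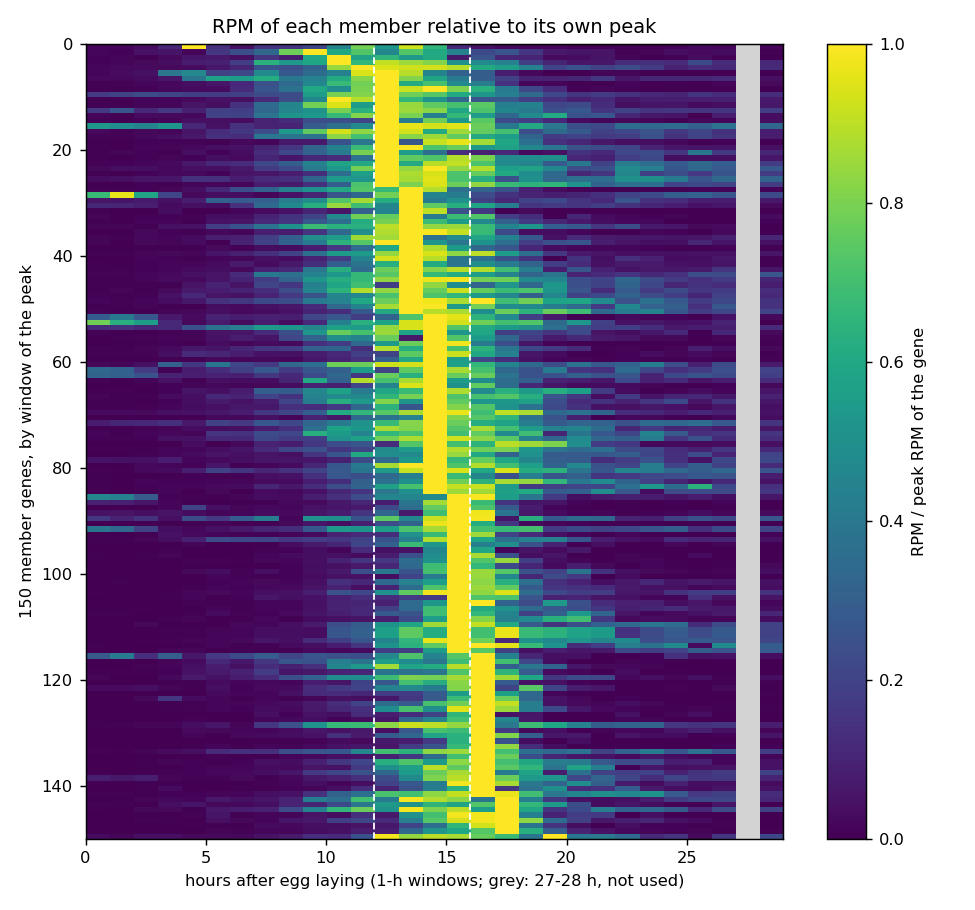
RPM of the 150 members in 29 windows of 1 h (x axis, hours after egg laying), each gene divided by its own peak (color, 0 to 1) and sorted by the window of the peak; dashed lines bound 12-16 h and the 27-28 h library is grey. In 110 rows the peak lies inside the dashed lines, and 11 rows are also above 20% of their peak at 0-2 h.

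The courses differed in breadth. The unbroken run of windows above 50% of the peak, counted around the peak window, had a median length of 4.5 windows, with 75 members at 4 windows or fewer and 44 members at 7 or more. Over the 5964 genes with at least 25 RPM the median was 4 windows. A run stops at the ends of the series, which cuts it short in genes that peak there. The medians are therefore not like measures of the stay near the peak. The onset was spread out, whereas the end was shared by many members. The run began at 12-13 h in 33 members, at 14-15 h in 27 and at 10-11 h in 22, and it ended with the 16-17 h window in 52 members and with the 17-18 h window in 38.

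Summed over the members, expression amounted to 2055 RPM at 0-1 h, 11808 RPM at 8-9 h and 31683 RPM at 11-12 h. It stood at 45488, 56768, 60557 and 58340 RPM in the 4 windows that defined the members. After that it was 48737 RPM at 16-17 h, 12485 RPM at 19-20 h and 4232 RPM at 28-29 h. In the 14-15 h window the members held 7.59% of the RPM of all genes, against 0.244% at 0-1 h and 0.532% at 28-29 h.

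Few genes carried most of this signal. The highest member made up 17.6% of the summed RPM at 12-16 h, the highest 2 together 33.1%, the highest 10 together 63.9%, and 27 members held 80% of it. Peak levels ran from 25.2 RPM to 13306 RPM with a median of 109 RPM, close to the median of 115 RPM over the 5964 genes. At least 1000 RPM was reached by 14 members, and 70 members stayed under 100 RPM. The median member was at 0.833 RPM at 0-1 h, 10.3 RPM at 8-9 h, 87.1 RPM at 15-16 h and 6.71 RPM at 28-29 h.

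**Figure D2:**
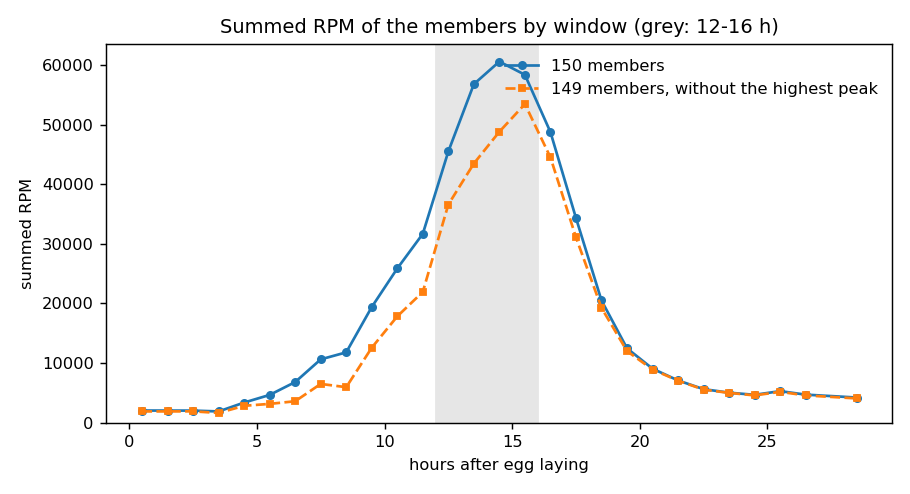
RPM summed over all 150 members (solid line) and over the 149 members without the one of highest peak (dashed line) in each window (x axis, hours after egg laying); grey marks 12-16 h. The sum over all members is highest at 14-15 h with 60557 RPM, and the sum without the highest member is highest at 15-16 h with 53429 RPM.

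The member with the highest share, 76.8%, was a weakly expressed gene (rank 1) with its main TSC of 21 bp at chr2:1205000-1205020 (plus strand). It was at 12.0 RPM at 11-12 h, at 17.5, 39.1, 35.3 and 9.73 RPM in the 4 windows from 12 to 16 h, and at 6.27 RPM at 16-17 h. No read was found in any of the 8 libraries used from 20 h on. Its peak at 13-14 h rested on 186 reads, with a 95% interval of 33.7 to 45.2 RPM, and was not resolved from 14-15 h.

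The gene of rank 2, with a TSC of 60 bp at XL_group1e:145192-145251 (minus strand), followed a symmetric course. It had 97.4 RPM at 11-12 h, 208, 412, 683 and 379.9 RPM in the 4 windows, and 145 RPM at 16-17 h. Its peak, with an interval of 639.7 to 728 RPM, stood above both neighboring windows.

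The gene of rank 3, at XR_group6:5644990-5645034 (plus strand), rose in a step between 13-14 h and 14-15 h. Its RNA was already present before 12 h, with 396 reads at 11-12 h. It was at 501 and 678 RPM at 12-13 h and 13-14 h, and at 2070.3 and 2133 RPM in the following 2 windows. It was still at 1317 RPM at 16-17 h, then at 342 RPM and 56.0 RPM. A small earlier maximum of 39.7 RPM at 5-6 h preceded it, with 7.70 RPM at 7-8 h in between.

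The gene of rank 4 combined a high share, 68.4%, with the second highest peak. Its TSC of 170 bp lies at XR_group8:787077-787246 (plus strand). It was at 263 RPM at 8-9 h and 3501 RPM at 11-12 h, and then at 5623, 8043, 10442 and 10209 RPM from 12 to 16 h. At 19-20 h it stood at 118 RPM, and in no later window was it above 60.4 RPM.

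Ranks 5 to 10 had shares between 59.8% and 66.2%. Rank 5, at chr3:6951129-6951255 (minus strand), was at 629, 1074, 942 and 586 RPM in the 4 windows, and its peak at 13-14 h was resolved. Rank 6, at 4_group3:6083309-6083347 (minus strand), held a plateau instead, at 95.4, 109, 107 and 98.5 RPM. These courses therefore differ in shape although their shares are alike.

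Ranks 7, 8 and 9 came on later within the 4 windows. Rank 7, at chr2:18586863-18586976 (minus strand), was at 1.75 and 1.89 RPM at 12-13 h and 13-14 h, and at 18.4 and 40.1 RPM in the next 2 windows. It was at 0.771 RPM at 17-18 h. That level rested on 1 read and the one at 12-13 h on 2 reads, below what these data resolve. The 18-19 h window held 13 reads. Rank 8, at chr3:383465-383621 (plus strand), had 5.25, 16.4, 33.1 and 48.1 RPM. Rank 9, at chr3:14072277-14072304 (plus strand), was at 7.00, 34.5, 76.5 and 88.8 RPM, and had also been at 8.25 RPM at 0-1 h. Rank 10, at XR_group3a:5313-5426 (minus strand), was at 124, 263, 278 and 139 RPM, with 210.2 RPM once more at 16-17 h.

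The member with the highest level was of rank 41, with a share of 43.5% and a TSC of 170 bp at XR_group6:7846552-7846721 (plus strand). Its course began early, with 1502 RPM at 5-6 h and 5839.5 RPM at 8-9 h. It reached 8898, 13306, 11759 and 4912 RPM from 12 to 16 h, and was at 463 RPM at 19-20 h and 24.8 RPM at 21-22 h. The peak window, with an interval of 13202 to 13409.6 RPM, was resolved.

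The gene of rank 30, at chr3:2081083-2081175 (minus strand), had its peak of 7816 RPM just after the 4 windows, at 16-17 h. In the 4 windows it was at 3798, 5543, 3869 and 7422 RPM. Rank 27, at XL_group1a:476578-476616 (plus strand), had 225, 502, 736 and 1428 RPM and still 1208 RPM at 17-18 h. Rank 48, at 4_group3:4499047-4499269 (minus strand), leaned the other way, at 3268, 3234, 2339.7 and 2519 RPM, and was at 138 RPM at 28-29 h. Rank 33, at chr3:18480840-18481165 (minus strand), had the broadest main TSC of the members, 326 bp, and was between 2433 and 2929 RPM in the 4 windows.

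**Figure D3:**
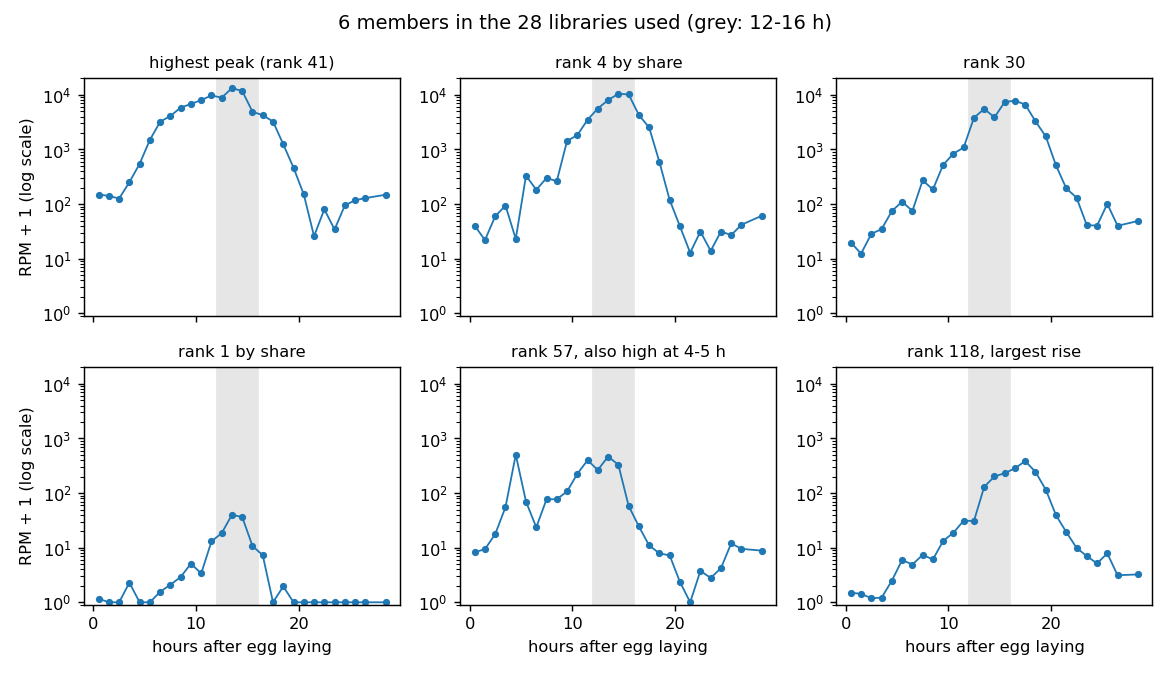
RPM + 1 on a log axis against hours after egg laying for 6 members in the 28 libraries used, with 12-16 h in grey; points are single libraries. Ranks 41, 4 and 30 peak at 13306, 10442 and 7816 RPM, rank 1 at 39.1 RPM, rank 57 is as high at 4-5 h (503 RPM) as at 13-14 h (466 RPM), and rank 118 peaks at 17-18 h with 385 RPM.

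Of the 40 members that peaked outside 12-16 h, 35 did so from 16 h on, with a median of 3 windows above 50% of the peak, against 5 in the 110 that peaked inside. Rank 75, at XL_group1a:4774925-4775056 (minus strand), was highest at 11-12 h with 350.2 RPM and then at 330.1, 324, 326 and 311 RPM in the 4 windows. Rank 109, at 4_group3:6588895-6588996 (plus strand), had 512 RPM at 10-11 h, 339 RPM at 11-12 h and 465, 436, 417 and 257 RPM from 12 to 16 h. In neither was the peak resolved from 12-13 h. The latest peak was that of rank 60, at XR_group3a:1193235-1193342 (minus strand), with 62.4 RPM at 19-20 h. In the 4 windows it was at 61.3, 52.6, 55.9 and 54.1 RPM, with 23.9 RPM at 18-19 h in between. Its peak rested on 50 reads and was not resolved from 12-13 h, which held 70 reads. A peak after 16 h, with each window above the one before, was seen in rank 146, at XR_group6:12839313-12839469 (plus strand), which had 11.4, 36.0, 65.5 and 118 RPM in the 4 windows, 168 RPM at 16-17 h and 180.4 RPM at 17-18 h.

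Transcripts of most members were nearly absent from eggs. The higher of the levels at 0-1 h and 1-2 h was under 1% of the peak in 96 members and above 20% of it in 11, which is 7.33% of the members against 72.3% of the 5964 genes. The highest level at 24-29 h was under 1% of the peak in 22 members and above 20% in 44, which is 29.3% against 81.5%. Both differences follow in part from the rule, because RPM outside 12-16 h lowers the share. Both the egg and the late level were above 20% in 5 members.

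The strongest egg supply among the members was that of rank 127, at XR_group8:5952421-5952544 (minus strand). It was at 475, 678 and 409 RPM in the first 3 windows and at 11.9 RPM at 7-8 h, and had 703 RPM at 13-14 h. Its intervals at 1-2 h and 13-14 h overlapped, so the egg and the later peak were not resolved. The highest late level in proportion to the peak was that of rank 80, at 4_group3:10145132-10145170 (plus strand), which peaked at 1206 RPM at 14-15 h. It fell to 205 RPM at 18-19 h and was again at 770.2 RPM at 25-26 h. Its highest level at 24-29 h was thus 63.9% of the peak.

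In 9 members the highest level between 3 and 7 h was at least 3 times that of the lower of the windows 7-8 h and 8-9 h, on at least 10 reads. Their courses were of different kinds. Rank 12, at chr2:21535907-21536048 (minus strand), was at 17.8 RPM at 3-4 h, 237 RPM at 4-5 h and 16.8 RPM at 6-7 h, before it reached 1193 RPM at 15-16 h. Rank 137, at chr2:22725235-22725270 (minus strand), had 197 RPM at 3-4 h, then 8.75 RPM at 8-9 h and later 1249 RPM. In FBgn0035625 (rank 57), at XR_group6:8013113-8013256 (minus strand), the early maximum was as high as the later one. It was at 503 RPM at 4-5 h, with an interval of 476 to 530.5 RPM, down to 22.6 RPM at 6-7 h, and up again to 466 RPM at 13-14 h. Other members met the condition without a comparable early peak. Rank 127 did so with the 147.8 RPM left at 3-4 h of its egg level, and rank 142 was at 33.3, 30.9, 28.3 and 33.2 RPM in the first 4 windows. In rank 125 the only low window was that at 8-9 h, and in rank 14 the early level was 5.14 RPM against a peak of 109 RPM.

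Some courses were jagged. In 17 members a window between 7 and 22 h lay at least 4-fold below the geometric mean of its neighbors (in RPM + 1), and the deepest such dip fell at 21-22 h in 6 of them and at 19-20 h in 5. The member of rank 125, which could not be tied to a TSC, was at 1338, 48.1 and 1601 RPM in the windows from 7 to 10 h, and at 3125, 174 and 1996 RPM from 16 to 19 h. Its peak of 3165 RPM at 15-16 h is among the 10 highest of the members.

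All windows on either side of 12-16 h entered the summed RPM of the share. Which side was higher was nevertheless not fixed by it. The 4 windows at 16-20 h were therefore compared with the 4 windows at 8-12 h, with limma on log2(RPM + 1) over all 8445 genes that reached at least 1 RPM and a threshold of 0.05 on the p adjusted by the Benjamini-Hochberg method. The windows of a flank stand in for replicates, so the spread includes the change with time within a flank, and there were no true replicates. The p-values measure only the spread between these windows.

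More members were called higher at 16-20 h than lower, in windows whose values had entered the share. Of the 150 members, 46 were higher at 16-20 h, which is 30.7% against a background of 23.5% of all genes tested, and 10 were lower, which is 6.67% against 22.0%. The median difference over the members was 0.89 on the log2 scale, against -0.05 over all genes tested, and the difference was positive in 109 members. All 4 late windows were above all 4 early windows in 34 members, which is 22.7% against a background of 22.2%. All 4 late windows were below all early ones in 7 members, which is 4.67% against 21.7%, and the flanks overlapped in 109. A member in the lower class was thus rarer than a gene in general, whereas a share without overlap upward was near the background. RPM before 12 h or after 16 h lowers the share, so the smaller lower class can follow in part from the rule. The background also holds genes that did not reach 25 RPM. The part of either in these differences was not tested. The called counts depended on single windows and on the test. Without the 16-17 h library 34 members were higher, which is 22.7% against 22.3% of all genes, and without the 17-18 h library 35, which is 23.3% against 22.7%, so that the share of members called higher was then near the background. The members called lower were 5 without the 10-11 h, 11-12 h or 18-19 h library, which is 3.33% against 18.3%, 18.7% and 17.0%, and 6 without the 9-10 h library, which is 4.00% against 16.6%. With edgeR on recovered reads, 63 members were higher and 10 lower, against backgrounds of 25.8% and 21.3%. With DESeq2, 75 were higher and 11 lower, against 29.4% and 18.5%. With flanks of 2 windows, 10-12 h and 16-18 h, 30 were higher and 5 lower, which is 20.0% and 3.33% against 10.7% and 3.10%, so that the smaller share of members in the lower class was not seen there.

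**Figure D4:**
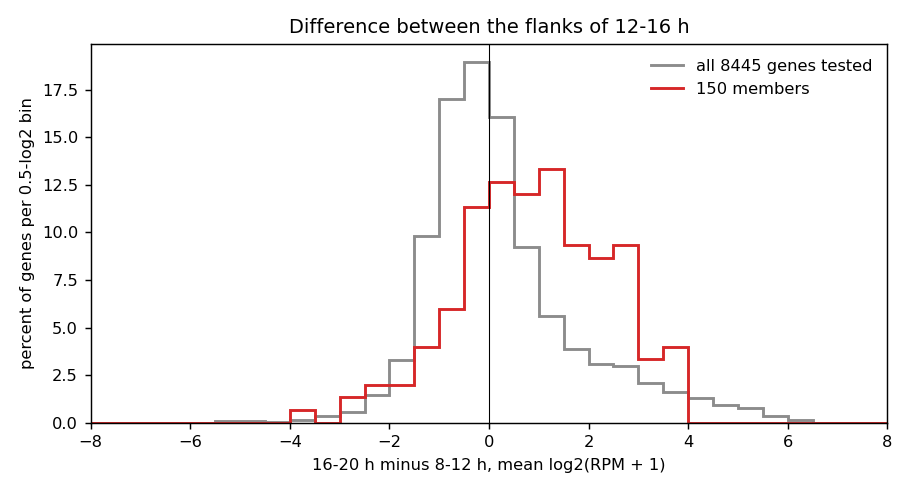
Distribution of the difference between the mean log2(RPM + 1) of the 4 windows at 16-20 h and that of the 4 windows at 8-12 h (x axis, positive where the later flank is higher), as percent of genes in each bin of 0.5, for the 150 members (red) and the 8445 genes tested (grey). The members have their median at 0.89 and all genes at -0.05.

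The direction went with the window of the peak, which was read from the same libraries and is given as a description. None of the 35 members that peaked from 16 h on was called lower and 17 were called higher. Their peaks lie within the later flank, so this direction was close to fixed in advance. Among the 22 members peaking at 12-13 h, 2 were higher and 5 lower, and among the 30 peaking at 15-16 h, 16 were higher and none was lower. Within the 110 members that peaked inside 12-16 h, 29 were higher and 7 lower, with a median difference of 0.74. These counts stand beside 23.5% higher and 22.0% lower over all genes tested.

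FBgn0030617 (rank 118) had the largest positive difference on the scale of log2(RPM + 1). Its TSC of 27 bp lies at XL_group1a:1828077-1828103 (plus strand). It was at 5.09, 12.3, 17.8 and 30.2 RPM from 8 to 12 h, and at 283, 385, 243 and 115 RPM from 16 to 20 h. Every late window was above every early one, and the difference in mean log2(RPM + 1) was 4.00 ± 0.53 (SE), with an adjusted p of 0.00052 in limma. FBgn0030592 (rank 104), which could not be tied to a TSC, was at 0.478, 3.62, 4.75 and 5.76 RPM before and at 86.6, 46.3, 51.2 and 67.3 RPM after the pulse. Its difference was 3.94 ± 0.48 (SE; limma, adjusted p = 0.00035), and it was still at 73.8 RPM at 20-21 h.

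The next 3 by this measure were ranks 137, 108 and 120. Rank 137 went from 8.75, 23.3, 55.5 and 48.0 RPM to 1249, 966, 412 and 61.1 RPM (difference 3.88 ± 0.95 SE; limma, adjusted p = 0.010). Rank 108, with a TSC of 40 bp at XL_group3a:1007148-1007187 (plus strand), went from 10.7, 15.1, 29.4 and 36.5 RPM to 745, 574, 179 and 76.1 RPM (3.69 ± 0.72 SE; limma, adjusted p = 0.0034). Rank 120, with a TSC of 19 bp at chr3:9620039-9620057 (minus strand), went from between 0.637 and 1.45 RPM to between 12.5 and 39.0 RPM (3.54 ± 0.40 SE; limma, adjusted p = 0.00025). The order among these 5 depended on the processing. With a pseudocount of 0.1 RPM, FBgn0030592 was at 4.45 and rank 120 at 4.37 against 4.10 for FBgn0030617. Rank 120 was at 4.69 in edgeR and at 4.76 in DESeq2, against 4.17 and 4.20 for FBgn0030617. In each of these 5 members all late windows were above all early ones, and each was called under all 15 alternatives. The main TSC was at most 40 bp wide in the 4 of them that were tied to a TSC.

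FBgn0035625 (rank 57), the gene with the early peak at 4-5 h, fell most. It was at 76.2, 106, 224 and 399 RPM from 8 to 12 h, and at 23.5, 10.0, 6.86 and 6.24 RPM from 16 to 20 h, a difference of -3.89 ± 0.57 (SE; limma, adjusted p = 0.00087). Within the pulse it went from 328 RPM at 14-15 h to 57.5 RPM at 15-16 h. Rank 100, at XR_group8:2073271-2073342 (plus strand), fell from 18.3, 26.3, 34.9 and 66.7 RPM to 7.38, 9.25, 2.39 and 3.74 RPM (-2.46 ± 0.48 SE; limma, adjusted p = 0.0033). Rank 150, the last member, at XR_group6:6512222-6512262 (plus strand), fell from 174, 222, 132 and 162 RPM to 50.0, 58.6, 35.6 and 15.0 RPM (-2.22 ± 0.39 SE; limma, adjusted p = 0.0022). All late windows of these 3 members were below all early ones.

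The other large falls were less firm. FBgn0262720 (rank 38), not tied to a TSC, was at 128, 176, 254 and 296 RPM before and at 159.8, 53.2, 7.34 and 6.24 RPM after the pulse (-2.92 ± 0.94 SE; limma, adjusted p = 0.032). Its flanks overlapped, and its adjusted p ranged from 0.0047 to 0.17 over the 15 alternatives, 7 of which did not call it. Rank 69, with a TSC of 33 bp at chr3:3033122-3033154 (plus strand), fell from 15.8, 20.1, 24.9 and 53.7 RPM to 16.6, 4.63, 1.28 and 0 RPM (-2.78 ± 0.82 SE; limma, adjusted p = 0.023). It was not called under 5 of the alternatives, where its adjusted p reached 0.18. Rank 41, the member of the highest level, went from 5839.5, 6819, 8027 and 9743 RPM to 4239, 3251, 1240.1 and 463 RPM. Its late windows were all below its early ones, with a difference of -2.15 ± 0.64 (SE; limma, adjusted p = 0.023), and its adjusted p ranged from 0.0068 to 0.094, with 5 alternatives not calling it.

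Promoter width was not used in choosing the members. A gene was tied to the only set of TSCs that held all, or at least 80%, of its reads and exceeded them in no library, which succeeded for 133 of the 150 members and 5650 of the 5964 genes with at least 25 RPM. The main TSC, the one with most of the RPM of the gene, had a median width of 86 bp in the members, with quartiles of 36 and 144 bp. In the other 5517 tied genes the median was 100 bp, with quartiles of 74 and 143 bp. Members thus had more main TSCs at the narrow end and as many at the broad end.

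A main TSC of at most 40 bp was present in 41 of the 133 tied members, which is 30.8%, against 11.1% of the other tied genes. The narrowest, of 11 bp, belonged to the member of rank 88. The extent of a TSC can depend on the number of reads, and members had a median of 2811 reads against 5128 for the other genes. Among genes with a peak under 100 RPM the share of narrow main TSCs was 38.7% in members and 14.4% in the others, and at 100 RPM or above it was 23.9% and 8.34%. In the other tied genes that also peaked at 12-16 h but did not reach the limit, it was 4.22%. The part of depth in the difference was not tested beyond this division.

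The same limit of 31.2%, applied to other blocks of 4 windows, gave the setting for this value. Main TSCs of at most 40 bp made up 5.70% of the tied genes at or above the limit in 0-4 h, 14.2% in 4-8 h, 25.0% in 8-12 h, 30.8% at 12-16 h, 42.2% in 16-20 h and 49.1% in 20-24 h. The members lay within this series of values, so a narrow promoter was not particular to them. The number of genes that reached the limit was 678 in 0-4 h, 239 in 4-8 h, 115 in 8-12 h, 150 in 12-16 h, 337 in 16-20 h and 631 in 20-24 h. RNA levels this concentrated in a block were therefore rarer at 8-12 h and 12-16 h than in the other blocks listed.

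**Figure D5:**
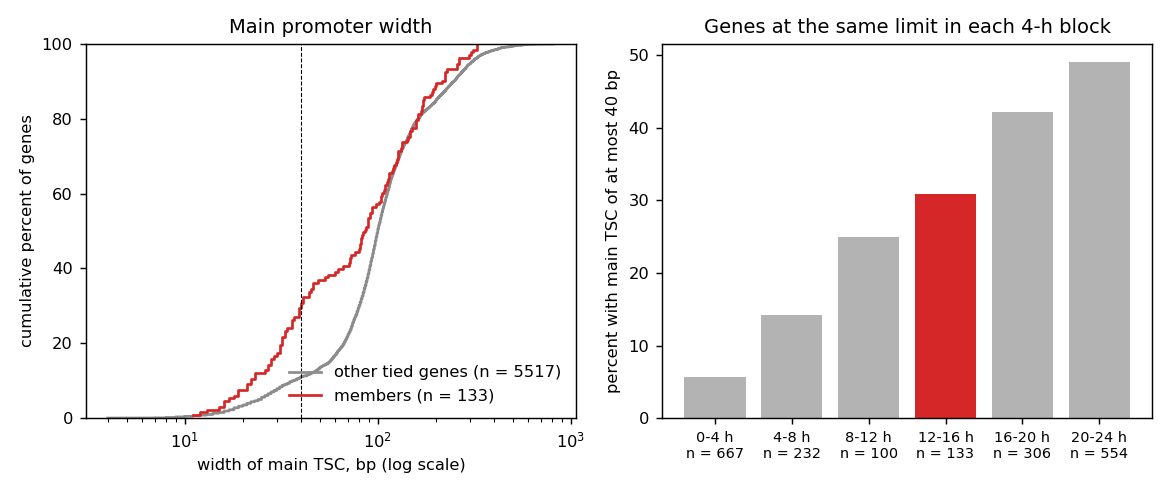
Left, cumulative percent of genes against the width of the main TSC (log axis) for the 133 tied members (red) and the 5517 other tied genes (grey), with a dashed line at 40 bp; right, percent of genes with a main TSC of at most 40 bp among the tied genes that reached the members' limit in each block of 4 windows, with the number of genes under each bar. The bar for 12-16 h is 30.8%, between 25.0% for 8-12 h and 42.2% for 16-20 h.

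The 41 members with a narrow main TSC differed in several values from the 92 with a wider one, although none of these differences was tested. Their median share was 40.5% against 37.6%, and their median peak was 80.5 RPM against 144 RPM. Their highest level at 24-29 h had a median of 3.70% of the peak against 11.0%. The median difference between the flanks was 1.87 against 0.74 on the log2 scale. Of the 41, 18 were higher and 2 lower, which is 43.9% and 4.88%. Of the 92, 25 were higher and 6 lower, which is 27.2% and 6.52%. Over all genes tested the shares were 23.5% and 22.0%, so the wider members were near the background in the higher class. The narrow members had a median of 1520 reads against 3128.5, and the part of depth in these values was not tested.

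Most members used a single promoter. In 107 of the 133 tied members, which is 80.5%, only the main TSC held at least 10% of the RPM, as in 84.5% of the other tied genes. In the remaining 26 members there were 30 further TSCs of at least 10%, with a median share at 12-16 h of 28.2%. Of these, 12 were themselves at or above the limit and 6 were below the 14.3% of an even course.

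Some members had TSCs that peaked at different times. In a gene on the plus strand of chromosome 2, the main TSC of 31 bp, from 10032885 to 10032915, peaked at 76.9 RPM at 12-13 h and had a share of 47.8%. A further TSC of 66 bp, from 10029719 to 10029784, peaked at 45.9 RPM at 7-8 h and had a share of 4.12%. In a gene on 4_group3 the main TSC, from 10939483 to 10939586 on the plus strand, peaked at 121 RPM at 15-16 h, whereas the TSC from 10939938 to 10940013 peaked at 43.0 RPM at 1-2 h and had a share of 1.41%. The latter was at 0.307 RPM when the main one peaked. It did not account for all early reads, since the gene had 817, 449 and 223 reads in the first 3 windows and this TSC 996 reads over all windows.

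Either the main or a further TSC could have the higher share. A gene on the minus strand of XL_group1e had its main TSC from 4094404 to 4094661 with a share of 24.5%, and a further TSC from 4089607 to 4089910 with a share of 42.2%. Both peaked at 12-13 h, at 289 and 515 RPM. On chromosome 3, a gene with its main TSC from 9084383 to 9084408 on the plus strand peaked at 45.5 RPM at 15-16 h with a share of 61.7%, while its TSC from 9078410 to 9078420 peaked at 10.1 RPM at 28-29 h with a share of 10.4%. The gene of rank 142, on the minus strand of 4_group1, was at 58.3 RPM from its main TSC at 12-13 h, and at 33.5 RPM at 0-1 h from a TSC at 4_group1:4023466-4023550, which lies upstream on that strand. The shares of these TSCs were 40.4% and 7.29%.

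The tied members lay on all arms. They were divided into 25 on chromosome 2, 32 on 3, 23 on 4, 18 on XL, 34 on XR and 1 on an unplaced scaffold. The share on XR was 25.6% against 19.9% of the other tied genes and that on chromosome 2 was 18.8% against 24.2%, and neither difference was tested. Neighbors among the members were few. Only 4 pairs had main TSCs within 20 kb of each other. A pair on 4_group4 shared a single TSC, from 1558649 to 1558819 on the plus strand, with identical values in every library and a peak of 1106 RPM, so these 2 members are 1 measurement. The other pairs were 7548, 9042 and 16345 bp apart, each with both genes on the same strand. The closest of these, on XR_group8, was made up of rank 14, with its TSC from 8331548 to 8331579 and a peak of 109 RPM at 15-16 h, and of a gene with its TSC from 8324000 to 8324040 and a peak of 52.3 RPM at 14-15 h.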

How the data were processed

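Whole embryos of 29 windows of 1 h were profiled by RAMPAGE, with 1 library per window. Reads had been mapped by the authors with STAR (genome and annotation FlyBase r2.9), TSCs called on the pooled series and those over ribosomal DNA repeats removed, and RPM values per TSC and per gene were deposited. Every RPM value used was a multiple of the worth of 1 read, so whole reads were recovered (100% of values within 0.1 read in the 28 libraries used). A deposited table of z-scores and the score of the TSC intervals were not used.

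Members were chosen as described, with the 27-28 h library left out. The members, lists and comparisons were chosen with earlier results of these data known. Genes were tied to TSCs by their reads, 104 members with all of them and 29 with at least 80%. Prepared lists of marker and pathway genes could not be applied because identifiers are not paired with names. Named members were the 10 highest in share, the 10 highest in peak, the 5 largest rises and 5 largest falls called between the flanks, and those next to the limit. Others were named after their values were seen, for egg supply, late level, early level, jagged course, several promoters and neighbors.

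Flanks were compared with limma 3.58.1 (R 4.3.3) on log2(RPM + 1) with the trend option and Benjamini-Hochberg adjustment over all genes tested, after a test on simulated data. The alternatives were edgeR 4.0.16 (quasi-likelihood, TMM) and DESeq2 1.42.0 on recovered reads, other pseudocounts, filters, scaling and flanks, and leaving out each library. Poisson intervals are exact at 95%.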

Additional observations from a re-analysis of the deposited data

Results flagged for a closer look

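The comparisons above used genes only. A signal of the same course appeared in TSCs that are assigned to no annotated gene and that were not tied to a gene of the gene table. Of 830 such TSCs with at least 25 RPM, 62 had a share at 12-16 h at or above that of the last member, which is 7.47%, against 261 of 7961 TSCs assigned to genes, or 3.28%. The difference was not tested. Their median width was 87 bp and their median peak 49.2 RPM, above the limit that 0 reads allow in each library used, at most 4.12 RPM in the gene table.

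The highest of them, of 155 bp, lies at chr3:6987359-6987513 (minus strand) and had a share of 37.8%. It was at 2501, 6404, 9382 and 7558 RPM in the 4 windows from 12 to 16 h, a level that only 2 members exceeded. Its course was jagged, with 1517, 988 and 5057 RPM in the windows from 7 to 10 h and 6324, 1025 and 3497 RPM from 16 to 19 h. Another, of 61 bp at chr2:15632978-15633038 (plus strand), was at 64.5, 228, 311 and 293 RPM from 12 to 16 h with a share of 58.2%, and 2 more of these TSCs lay within 2 kb of it.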

How the results depend on the processing

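No paired analysis was possible because each window has 1 library and the labels give no replicate numbers shared between groups of several samples. The count of genes called between the flanks was 3840, and it was 1167 with 2 windows per flank (10-12 h and 16-18 h), the only alternative outside 1.5 times, with 77.5% of the calls higher against 51.7%. With those shorter flanks 30 members were higher and 5 lower. With DESeq2, 75 members were higher and 11 lower, with a median of all genes of 0.14 instead of -0.05, and of the members of 1.15. Leaving out each of the 8 libraries gave 3114 to 3927 genes called, 33 to 59 members higher and 5 to 14 lower. The share of members higher then exceeded that of all genes by 0.35 to 15.5 percentage points, least without the 16-17 h library. Of the 46 and 10 members called, 20 and 4 were called under all 15 alternatives, and none changed sign. The choice of members depended on the limit in level: of the 150, 80 were retained when candidates had to reach 100 RPM, 117 when they had to reach 10 RPM, and between 125 and 137 without 1 of the 4 pulse libraries. The 27-28 h library, upper-quartile scaling and smoothing over 3 windows retained 140 to 146. The median width of the main TSC was between 76 and 87 bp under the 3 alternatives. Levels under 3 reads, up to 4.12 RPM in the shallowest library used, are below what these data resolve.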
